A study of Mus musculus with 6 samples.

Results

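The genes described here carry out phase II conjugation, the step in which the cell couples a drug, hormone or reactive metabolite to a charged group. They were taken by symbol from 4 families: the cytosolic sulfotransferases (Sult), the UDP-glycosyltransferases (Ugt), the cytosolic glutathione S-transferases (Gst) and the microsomal glutathione S-transferases (Mgst). Among the 19938 genes tested, 49 matched: 16 Sult, 11 Ugt, 19 Gst and 3 Mgst genes. A further 17 symbols of these families, among them 8 Ugt1a genes, Gsta1 and Gsta2, were found only on array rows shared by several genes. They are no members and are described separately.

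Expression was measured by microarray in whole kidneys of mouse embryos at E14.5. The 3 pools labelled Foxd1 null came from Foxd1-/- embryos and the 3 wild type pools from wild type littermates, all from 3 litters of Foxd1+/- intercrosses, and embryo sex was not determined. Foxd1 is a forkhead transcription factor of the stromal progenitors of the kidney, and Foxd1-/- embryos carry the mutation in every cell. Each pool held 2 kidney pairs from different litters, so any 2 pools shared at least 1 litter. The comparison asks how conjugation genes differ between kidneys labelled Foxd1 null and wild type kidneys. The Foxd1 row itself was not lower in the pools labelled null, at 9.84 ± 0.18 against 9.55 ± 0.15 in the wild type pools (log2, SD, n = 3 each), a log2 difference of 0.30 (limma adjusted p = 0.246). The sources used here do not give which part of the gene the row probes or the allele lacks, and the directions below follow the labels.

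Sulfotransferases transfer sulfonate from the donor PAPS to phenols, steroids and catecholamines. UDP-glycosyltransferases transfer a sugar, in most cases glucuronic acid, from its UDP form, and glutathione transferases join glutathione to electrophiles. The products are more water-soluble and leave the cell through efflux pumps. In the adult kidney the proximal tubule is the main site of this work, whereas at E14.5 the first tubules are only forming and the rest of the organ is progenitors, stroma, vessels and ureteric epithelium. In whole kidneys, fewer cells of a type and less RNA per cell cannot be told apart.

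The tissue marker lists were chosen with earlier results of these data known, so counts over them are no independent test. Their values were as follows. On these arrays 95% of 1027 olfactory receptor genes, which a kidney is not expected to use, had a mean log2 value under 6.59 (median 4.80), and that value served as a mark of low signal. All 10 ureteric and all 10 stromal markers and 13 of 17 proximal tubule markers had a mean above it. Liver markers stood apart in null-labelled pool 3, where the mean over 11 genes was 8.54, against 6.19 and 6.44 in the other null-labelled pools and 6.22 to 6.76 in the wild type pools. Adrenal cortex markers also stood highest in that pool (7.66 over 7 genes, against 5.87 to 6.57 in the other 5 pools). Proximal tubule markers averaged 6.60 to 6.70 in the null-labelled pools and 7.16, 7.14 and 6.87 in wild type pools 1, 2 and 3, with pool 3 the lowest of the wild type. Of those 17 markers 6 fell and 0 rose (limma, adjusted p under 0.05), where 0.767% of all genes were lower and 1.64% higher. Loop of Henle and distal tubule markers averaged 6.98 to 7.06 in the null-labelled pools, against 7.51 to 7.77 in the wild type pools, and 4 of 11 fell (median difference -0.36). Stromal markers averaged 9.86 to 10.03 in the null-labelled pools, against 9.34 to 9.49 in the wild type pools, with 6 of 10 higher and 1 lower (median 0.56). Ureteric markers averaged 7.98 to 8.06 in the null-labelled pools, against 7.76 to 7.88 in the wild type pools. Of these 10, 2 were higher, 0 were lower and 8 did not pass (median 0.11). No skeletal muscle or sympathetic neuron marker passed, but the means of both lists spread widely, over 8.13 to 8.87 and 6.97 to 8.55 in the null-labelled pools, against 7.19 to 8.38 and 6.72 to 7.28 in the wild type pools.

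The promoters of the genes the results turn on are shown because, of the 4 genes that passed the test, Sult1d1 and Ugt2b37 lie in 1 chromosomal cluster and fell, while Sult5a1 and Ugt8a lie on other chromosomes. Each is the RefSeq window of GRCm38.p6 that runs from 250 bases before to 50 bases after the gene's start, written 5′ to 3′ along the gene. Ugt2b5, which did not pass the test, is shown as a close relative of Ugt2b37. Capitals mark the letters TTAATNATT (the core of the site of the tubule factor HNF1) and GTAAACA (a forkhead site), searched on both strands. The positions are chr5:87568957-87569256 for Sult1d1, chr5:87254739-87255038 for Ugt2b37, chr5:87140291-87140590 for Ugt2b5, chr8:123158231-123158530 for Sult5a1 and chr3:125938603-125938902 for Ugt8a, each on the minus strand.
Sult1d1: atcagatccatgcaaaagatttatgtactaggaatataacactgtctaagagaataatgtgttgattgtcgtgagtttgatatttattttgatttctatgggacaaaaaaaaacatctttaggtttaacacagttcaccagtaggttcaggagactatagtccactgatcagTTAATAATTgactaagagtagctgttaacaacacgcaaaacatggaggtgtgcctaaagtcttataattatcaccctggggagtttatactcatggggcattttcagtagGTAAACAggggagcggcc
Ugt2b37: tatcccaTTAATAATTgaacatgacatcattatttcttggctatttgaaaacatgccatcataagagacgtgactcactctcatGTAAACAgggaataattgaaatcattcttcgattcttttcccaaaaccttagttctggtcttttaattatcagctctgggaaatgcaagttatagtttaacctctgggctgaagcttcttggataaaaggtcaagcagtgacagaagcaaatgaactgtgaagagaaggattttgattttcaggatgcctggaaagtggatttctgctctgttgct
Ugt2b5: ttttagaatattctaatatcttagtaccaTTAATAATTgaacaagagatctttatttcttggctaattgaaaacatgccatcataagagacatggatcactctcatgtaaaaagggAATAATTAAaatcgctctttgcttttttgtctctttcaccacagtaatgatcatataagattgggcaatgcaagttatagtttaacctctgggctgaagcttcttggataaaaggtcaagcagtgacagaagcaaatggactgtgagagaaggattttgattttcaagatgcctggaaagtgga
Sult5a1: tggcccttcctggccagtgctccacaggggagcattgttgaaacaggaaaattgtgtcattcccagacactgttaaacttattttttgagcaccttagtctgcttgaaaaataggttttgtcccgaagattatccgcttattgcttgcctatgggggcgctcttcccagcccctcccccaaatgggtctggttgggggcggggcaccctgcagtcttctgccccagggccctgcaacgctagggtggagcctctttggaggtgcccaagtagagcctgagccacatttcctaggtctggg
Ugt8a: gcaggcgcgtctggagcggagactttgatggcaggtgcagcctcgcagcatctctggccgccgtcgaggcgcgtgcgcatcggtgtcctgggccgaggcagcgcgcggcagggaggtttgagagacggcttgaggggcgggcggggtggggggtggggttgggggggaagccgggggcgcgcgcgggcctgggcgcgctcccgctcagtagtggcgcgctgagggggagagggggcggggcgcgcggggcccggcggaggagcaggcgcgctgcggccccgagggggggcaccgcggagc

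Counted from the gene's start, with negative positions before it, a TTAATNATT match runs from -78 to -70 in Sult1d1, from -243 to -235 in Ugt2b37 and from -221 to -213 in Ugt2b5, which holds another match on the opposite strand from -134 to -126. The GTAAACA match of Sult1d1 runs from 33 to 39 and that of Ugt2b37 from -166 to -160. Neither motif occurs in the windows of Sult5a1 and Ugt8a. Of 45 members with a promoter window, 7 held TTAATNATT, all in the Sult1d1, Sult2a and Ugt2b groups, where 1.54% of 27025 promoters did. These carriers include genes with differences near 0 that did not pass, namely Sult2a3 (-0.01), Sult2a6 (-0.10) and Ugt2b35 (0.05), and Ugt2b35 holds GTAAACA as well. GTAAACA stood in 4 of the 45 and in 3.55% of all promoters, and the antioxidant response core TGACNNNGC in 3 of the 45 (Gsta3, Gstm5 and Mgst1) and in 12.5% of all. None of these matches overlaps another in a printed window. The Ugt2b promoters are no independent instances, since the windows of Ugt2b37 and Ugt2b5 were identical at 247 of 276 aligned bases (89.5%). The Ugt8a window is 78.3% G and C and that of Sult1d1 37%, against a median of 52.7% over all promoters. A match is a run of letters and was not tested as a binding site. The motifs were chosen after values or sequences were seen, so the shares among members and all promoters are no test.

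Of the 49 conjugation genes, 3 fell in the pools labelled null (Sult1d1, Ugt2b37 and Ugt8a), 1 rose (Sult5a1) and 45 did not pass (limma, adjusted p under 0.05 over all genes). Over all 19938 genes 2.4% passed, 0.767% lower and 1.64% higher. The median log2 difference of the 49 genes was -0.05, against 0.01 over all genes, and 28 of the 49 lay below 0 (57.1%, against 45.5% of all genes). In 10 members every null-labelled pool lay below every wild type pool, and in 3 every one lay above, against 8.04% and 11.5% of all genes. The calls were split by family: 1 Sult and 2 Ugt genes fell, 1 Sult gene rose, and 0 of 19 Gst and 0 of 3 Mgst genes passed. At an unadjusted p under 0.05 (limma), 2 of the 19 Gst genes were higher and 5 lower. The same threshold gave 8.68% higher and 5.42% lower over all genes, so the lower Gst share was above that of all genes. It gave 5 of 16 Sult and 4 of 11 Ugt genes lower, and 1 and 0 higher. Whether the families differ was not tested.

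**Figure D1:**
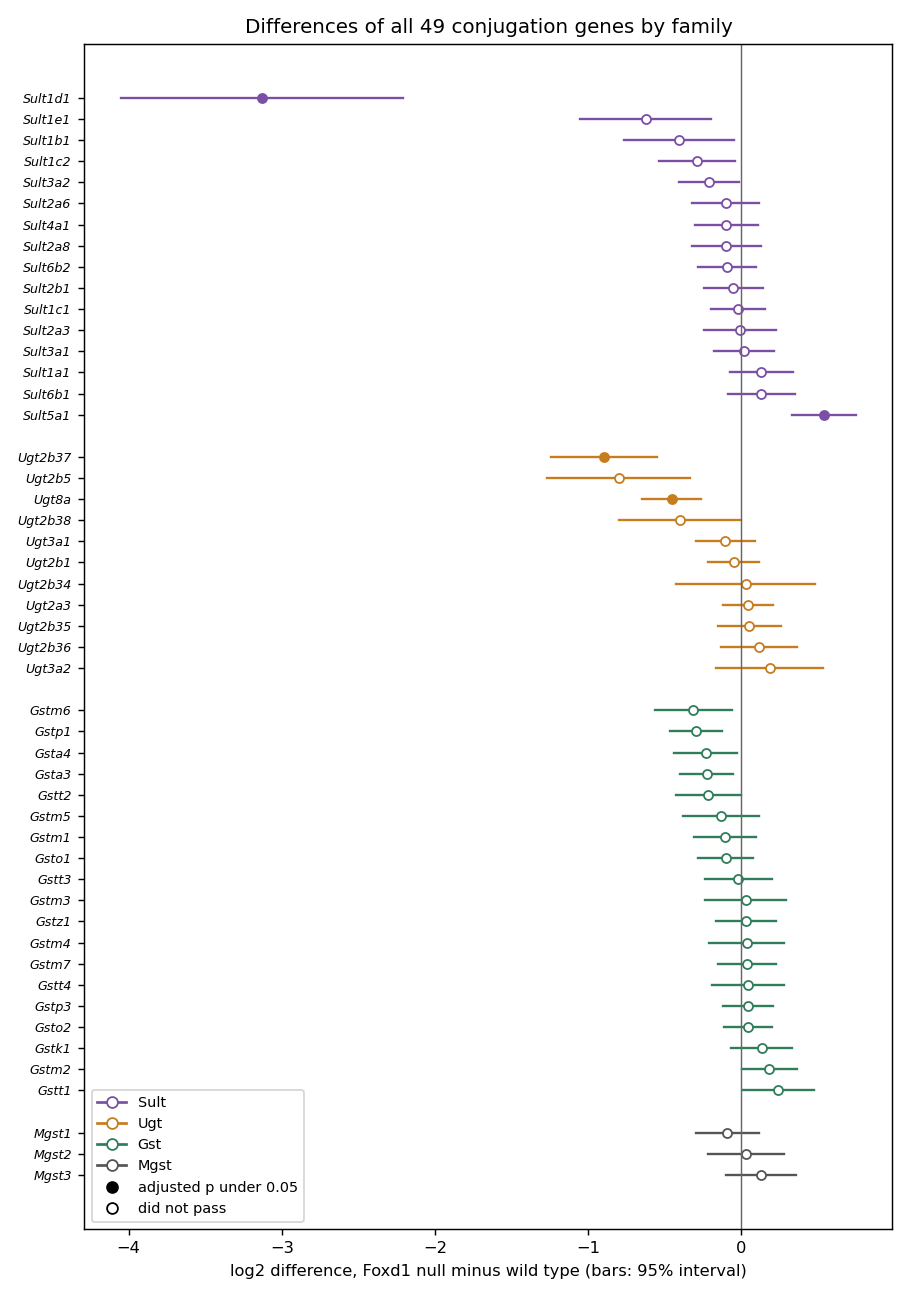
Difference between the pools labelled Foxd1 null and the wild type pools for all 49 conjugation genes, in log2 units, ordered by family and size. Points are differences of means over 3 pools each, bars are 95% intervals of the limma fit, and filled points passed the threshold. Sult1d1 lies at -3.13, far to the left of the other members, and all Gst and Mgst points lie between -0.31 and 0.24.

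Among the sulfotransferases, Sult1d1 had the largest difference of all 19938 genes in absolute size, a rank that rests on null-labelled values under the mark of low signal and on the deposited values used here, since the authors' deposited table gives the gene a smaller change. Its product sulfonates dopamine and other small phenolic amines in mice. Sult1d1 had log2 values of 4.95, 4.77 and 5.04 in null-labelled pools 1, 2 and 3, against 8.84, 8.50 and 6.81 in wild type pools 1, 2 and 3. The null-labelled pools lay close together and under the mark of low signal, whereas all 3 wild type pools lay above it and wild type pool 3 stood well below the other wild type pools. The log2 difference was -3.13 (SE 0.41, 95% interval -4.05 to -2.21, adjusted p = 0.00464), and without wild type pool 3 it was -3.75 (adjusted p = 1.4e-05). The call held when any 1 pool was left out, with adjusted p up to 0.0376, but was lost with a robust variance model with an intensity trend (adjusted p = 0.112) and when all rows of the array were tested (0.0741). Because the null-labelled values lie in the range of the olfactory receptor rows, the difference is no exact fold.

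The authors' deposited table differs for Sult1d1 in size. In the authors' deposited table its signed fold is -3.72 with a p-value of 0.0094, and its p-value for expression is 0.584 in the null group and 0.0472 in the wild type group. On the log2 scale the medians differ by -1.90 in the authors' deposited table and by -3.55 in the deposited values used here. That gap was the largest among the 488 probe sets present in both files, whose median gap was 0.10. No other member stands in the authors' deposited table.

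The neighbours of Sult1d1 on chromosome 5 also encode conjugation enzymes. Sult1b1, whose product acts on thyroid hormones and phenols, stands on one side and Sult1e1, the estrogen sulfotransferase, on the other. Sult1e1 had log2 values of 3.16, 3.25 and 3.29 in null-labelled pools 1, 2 and 3, against 4.40, 3.67 and 3.50 in wild type pools 1, 2 and 3. The groups did not overlap, but all 6 values were far under the mark of low signal and the difference of -0.63 did not pass (SE 0.19, adjusted p = 0.153). Sult1b1 differed by -0.41 (SE 0.16, adjusted p = 0.284), with groups that overlapped. Sult1c2, on another chromosome, differed by -0.29 (adjusted p = 0.26). Sult1a1, a broad phenol sulfotransferase, stood above the mark in all 6 pools and differed by 0.13 (95% interval -0.07 to 0.34).

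Sult5a1, a cytosolic sulfotransferase, was the member that rose. It stood at 7.36, 7.33 and 7.47 in null-labelled pools 1, 2 and 3 (log2), against 6.96, 6.93 and 6.67 in wild type pools 1, 2 and 3. The groups did not overlap, and all 6 values lay above the mark of low signal. The log2 difference was 0.54 (SE 0.09, 1.45-fold, adjusted p = 0.0177). Leaving out null-labelled pool 2 ended the call (adjusted p = 0.0604), as did leaving out wild type pool 2 (0.0528) or null-labelled pool 3, the pool in which liver and adrenal markers were highest (difference 0.49, adjusted p = 0.063). The other 11 Sult genes, among them Sult1a1 and the Sult2 hydroxysteroid sulfotransferases, differed by -0.21 to 0.13 and did not pass.

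**Figure D2:**
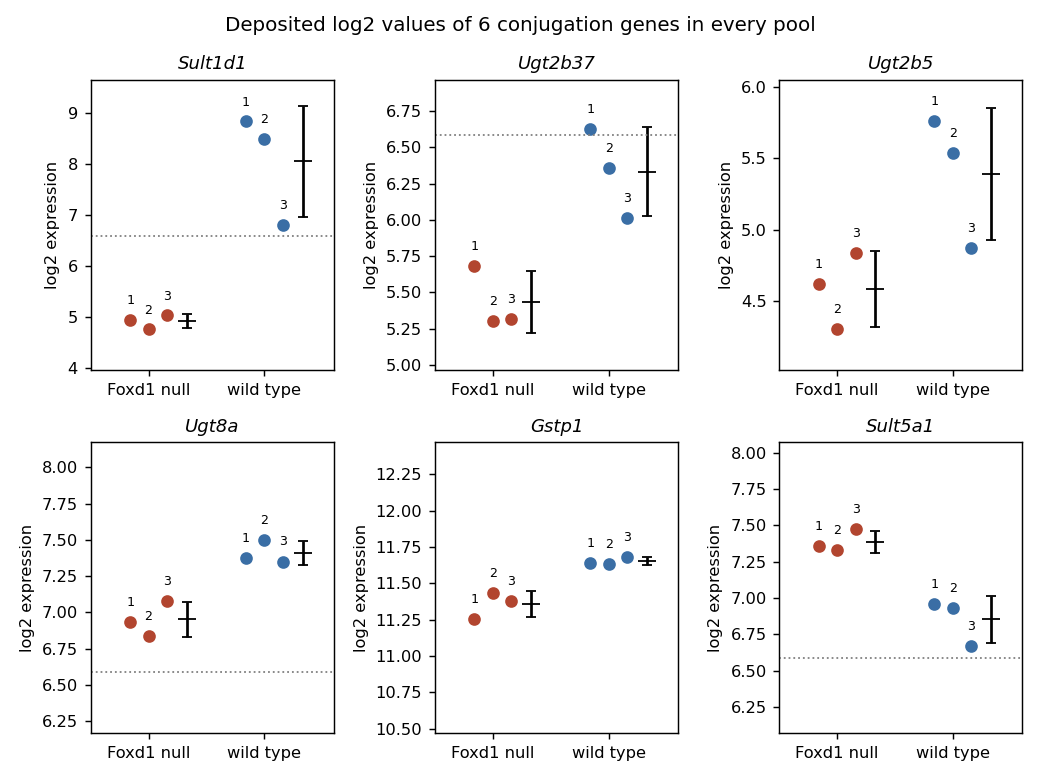
Log2 expression of 6 conjugation genes in each pool, with the pools labelled Foxd1 null at the left and the wild type pools at the right of each panel. Numbered points are pools, the black bar is the mean ± SD (n = 3), and the dotted line marks the 95th percentile of olfactory receptor rows (6.59). Sult1d1 lies under the line in all null-labelled pools and above it in all wild type pools, with wild type pool 3 at 6.81.

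Among the UDP-glycosyltransferases, Ugt2b37, one of the Ugt2b enzymes that glucuronidate steroids and drugs, had log2 values of 5.68, 5.30 and 5.32 in null-labelled pools 1, 2 and 3, against 6.62, 6.35 and 6.01 in wild type pools 1, 2 and 3. The groups did not overlap, and only wild type pool 1 was above the mark of low signal. The log2 difference was -0.90 (SE 0.15, adjusted p = 0.0158). It ran from -1.06 to -0.75 when 1 pool was left out, and the call held in the fits that left out null-labelled pool 1 or wild type pool 3, and in none of the other 4 (adjusted p 0.0551 to 0.0886). Its close relative Ugt2b5 had values of 4.62, 4.30 and 4.83 in null-labelled pools 1, 2 and 3, against 5.76, 5.54 and 4.87 in wild type pools 1, 2 and 3. The groups just did not overlap, with wild type pool 3 close to null-labelled pool 3, and the difference of -0.80 did not pass (SE 0.21, adjusted p = 0.0921). Without wild type pool 3 it was -1.06 (adjusted p = 0.0117). Ugt2b genes are close copies of each other, and RNA of one could bind the row of another, so which of them changed is uncertain.

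Of the 7 Ugt2b genes measured, 1 fell and 6 did not pass. Ugt2b38 differed by -0.40 (SE 0.18, adjusted p = 0.354), with groups that overlapped. Ugt2b1, Ugt2b34, Ugt2b35 and Ugt2b36 differed by -0.05 to 0.12. All 7 had mean levels under the mark of low signal. Ugt2b34 was highest in null-labelled pool 3, at 6.44, against 5.62 and 5.66 in null-labelled pools 1 and 2 and 5.67 to 6.11 in the wild type pools; pool 3 was also the one with the highest liver markers, whose part in this value was not tested.

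RefSeq places 11 of the 49 members side by side on chromosome 5, 8 Ugt2 genes followed by the 3 Sult1 genes, within a run of 13 protein-coding genes. Sult1d1 and Ugt2b37 fell and the other 9 did not pass. The 6 members of the run with the lowest differences were Sult1d1, Ugt2b37, Ugt2b5, Sult1e1, Sult1b1 and Ugt2b38, all at -0.40 or below, and the remaining 5 lay between -0.05 and 0.12. None of the 11 had a mean level above the mark of low signal, and the groups of Sult1b1 and Ugt2b38 overlapped. The low differences did not form 1 unbroken stretch, since Ugt2a3, with 0.04, lies between Ugt2b37 and Ugt2b38.

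**Figure D3:**
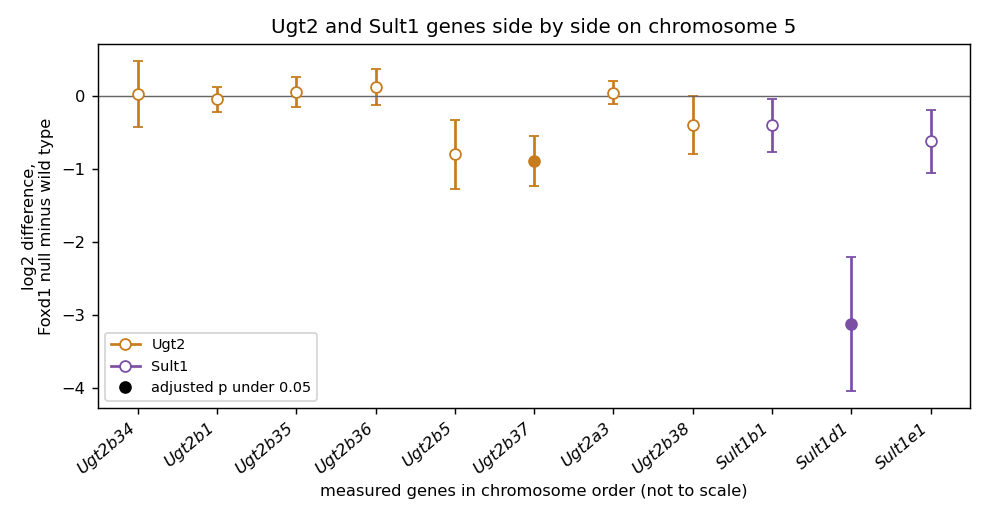
Log2 difference between the pools labelled Foxd1 null and the wild type pools for the 11 measured Ugt2 and Sult1 genes of chromosome 5, in chromosome order with equal spacing. Bars are 95% intervals and filled points passed the threshold. Ugt2b37 (-0.90) and Sult1d1 (-3.13) are filled, and the 4 genes at the left end lie between -0.05 and 0.12.

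Ugt8a belongs to the same superfamily but adds galactose to ceramide, the first step to galactosylceramide and sulfatide, and is not known as a drug-conjugating enzyme. It stood at 6.94, 6.84 and 7.08 in null-labelled pools 1, 2 and 3 (log2), against 7.37, 7.50 and 7.35 in wild type pools 1, 2 and 3. All 6 lay above the mark of low signal, the groups did not overlap, and wild type pool 3 stood with the other wild type pools. The log2 difference was -0.46 (SE 0.09, adjusted p = 0.0253). Leaving out null-labelled pool 2 ended the call (adjusted p = 0.0989), and so did leaving out each wild type pool (0.0551 to 0.121). The Ugt8a locus overlaps 1 other RefSeq gene, a long non-coding RNA. Ugt3a1 and Ugt3a2, which use UDP-sugars other than the glucuronic acid form, differed by -0.11 and 0.18 and did not pass.

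None of the 19 cytosolic glutathione transferases passed, and 15 of them had mean levels above the mark of low signal. Each of the 19 had a 95% interval within 1.5-fold in both directions, as had 94.5% of all genes. The lowest adjusted p was that of Gstp1, the pi-class enzyme, with log2 values of 11.26, 11.43 and 11.38 in null-labelled pools 1, 2 and 3, against 11.64, 11.63 and 11.68 in wild type pools 1, 2 and 3. The groups did not overlap and wild type pool 3 was the highest, unlike for Sult1d1. The log2 difference was -0.30 (SE 0.08, 95% interval -0.46 to -0.13, adjusted p = 0.083). Gstp1 passed with an intensity trend (adjusted p = 0.0244), with the trend and robust variances (0.0156) and with the filter on low rows (0.0469). These were 3 of 16 alternatives. It passed in none of the 6 limma fits that left out 1 pool (adjusted p 0.12 to 0.253), nor with quantile normalization (0.118) or all rows tested (0.204). Both rows that Gstp1 shares with Gstp2 also lay lower in every null-labelled pool, with differences of -0.25 and -0.22.

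The alpha-class genes Gsta4, whose product clears the lipid peroxidation product 4-hydroxynonenal, and Gsta3 differed by -0.23 each (SE 0.09 and 0.08, adjusted p = 0.284 and 0.213), and in both the groups did not overlap. The 7 mu-class genes differed by -0.31 (Gstm6, under the mark of low signal) to 0.18 (Gstm2), with a median of 0.03. The 4 theta-class genes ran from -0.22 (Gstt2) to 0.24 (Gstt1, adjusted p = 0.331), a median of 0.01. Gsto1, Gsto2, Gstk1, Gstz1 and Gstp3 differed by -0.10 to 0.13. Mgst1, a membrane enzyme of the endoplasmic reticulum and mitochondria, differed by -0.09 (95% interval -0.30 to 0.11), and Mgst2 and Mgst3 by 0.03 and 0.13, with adjusted p of 0.662 or more for all 3.

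None of the 12 rows that several of these genes share passed the test. They were looked at after their values were seen and are given from the test over all rows of the array, where no member passed either. The row shared by 8 Ugt1a genes, which encode the bilirubin and phenol glucuronidating enzymes from 1 locus, had log2 values of 6.22, 6.32 and 6.56 in null-labelled pools 1, 2 and 3, against 7.18, 7.16 and 6.74 in wild type pools 1, 2 and 3. The difference was -0.66 (SE 0.15, adjusted p = 0.169), and the groups did not overlap. The 4 rows shared by Gsta1, Gsta2 and 2 predicted genes differed by -0.68 to -0.51 (adjusted p 0.186 to 0.387). In the Ugt1a row and in all 4 Gsta rows wild type pool 3 was the lowest wild type pool. The rows of Sult2a, Ugt2a and Ugt3a genes that several symbols share differed by -0.08 to 0.31 and had groups that overlapped.

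Wild type pool 3 was the lowest wild type pool for Sult1d1, Sult1e1, Sult1b1, Ugt2b37 and Ugt2b5, as it was for the proximal tubule markers, and this did not hold for Gstp1 and Ugt2b38. The same pool was also the lowest wild type pool for Sult5a1, which rose (6.67, against 6.96 and 6.93). For Ugt8a it was the lowest by little (7.35, against 7.37 and 7.50), so the trait is not particular to the genes that fell. Over all 49 members it was the lowest wild type pool for 20 (40.8%, against 33.0% of all genes) and the highest for 19 (38.8%, against 38.9% of all genes), both near the background. Null-labelled pool 3 was the highest of all 6 pools for 19 members (38.8%, against 30.2% of all genes). With both of these pools left out, an alternative added after the data were seen, Sult1d1, Ugt2b37, Ugt2b5 and Ugt8a fell and Sult5a1 did not pass (difference 0.40, adjusted p = 0.0846). The part of proximal tubule or liver markers in these values was not tested.

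**Figure D4:**
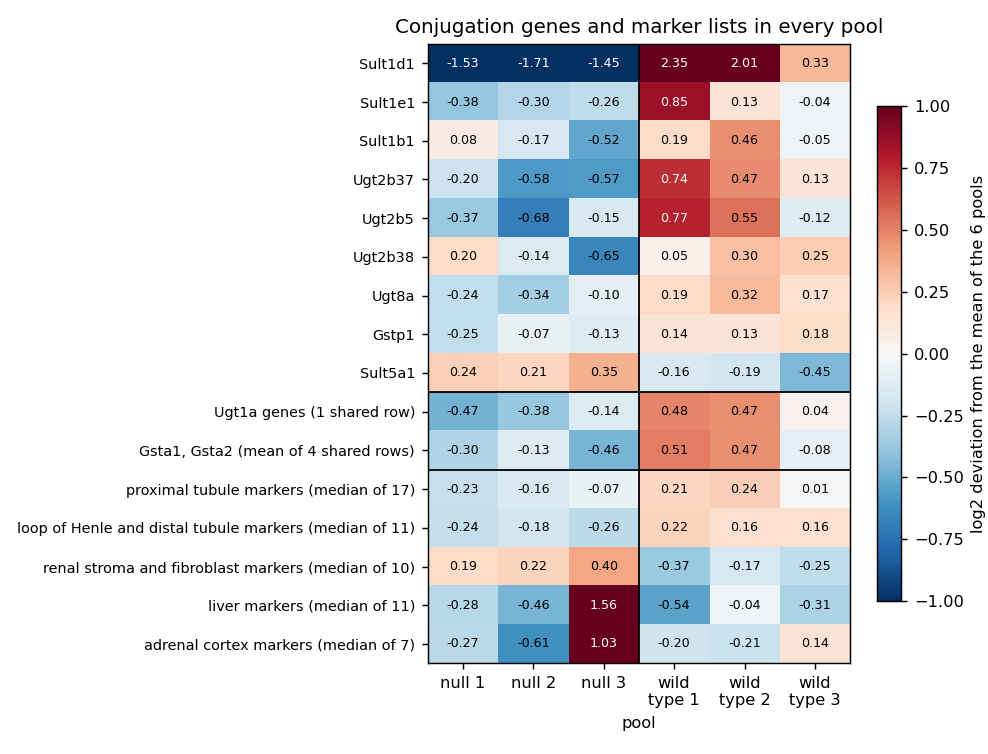
Deviation of each pool from the mean of the 6 pools, in log2 units, for 9 members, for the shared Ugt1a row, for the mean of the 4 shared Gsta rows and for marker lists (median over the genes of a list). The pools labelled Foxd1 null are the 3 columns at the left, red is higher and blue is lower. Wild type pool 3 is paler than wild type pools 1 and 2 for Sult1d1 (0.33, against 2.35 and 2.01) and for proximal tubule markers (0.01, against 0.21 and 0.24), and liver markers reach 1.56 in null-labelled pool 3.

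Few genes of co-substrate supply passed, as few did over all genes (2.4%). In lists of this size that share alone would give few calls. Of 12 measured genes of sulfate donor supply and desulfation, 1 fell and 11 did not pass. The one was Papss2, an enzyme that makes the sulfonate donor PAPS, with log2 values of 7.38, 7.34 and 7.39 in null-labelled pools 1, 2 and 3, against 7.84, 7.85 and 7.63 in wild type pools 1, 2 and 3. The groups did not overlap and wild type pool 3 was again the lowest wild type pool (difference -0.40, SE 0.08, adjusted p = 0.0355). The Papss2 call held without wild type pool 3 and was lost without any 1 of the other 5 pools (adjusted p up to 0.168). Of 10 genes that supply UDP-glucuronic acid or remove glucuronide, none passed. Ugdh, which makes UDP-glucuronic acid, differed by 0.23 (limma adjusted p = 0.212) and Slc35d2 by 0.21 (adjusted p = 0.289). Of 24 genes of glutathione synthesis, recycling and breakdown none passed, with a median of -0.02. Gpx7 differed by 0.29 (adjusted p = 0.0988), and Gclc, the catalytic subunit of the rate-limiting enzyme of glutathione synthesis, by 0.37 (adjusted p = 0.219). None of 19 genes of the NRF2 pathway, the oxidative stress response that drives many Gst genes, passed (median -0.04). The 2 with the lowest p were Prdx1, at -0.29 (limma adjusted p = 0.148), and Gclc, which is also on this list. The 9 efflux pumps did not pass, with Abcc5 at 0.31 (adjusted p = 0.0844) and Abcc2, an apical pump for conjugates, at -0.26 (adjusted p = 0.155).

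Of 19 measured phase II enzymes of other classes, 3 fell, 0 rose and 16 did not pass, with a list median of -0.08. Over all genes 0.767% were lower and 1.64% higher, and the list was chosen with earlier results of these data known. Keg1, of the glycine N-acyltransferase family, fell by 2.19 (SE 0.23, adjusted p = 0.00144), Tpmt, which methylates thiopurines, fell by 0.95 (SE 0.13, adjusted p = 0.00485), and Acsm2, which activates medium-chain acids for amino acid conjugation, fell by 0.56 (SE 0.12, adjusted p = 0.0439). Keg1 stood at 5.62 to 5.94 in the null-labelled pools, under the mark of low signal, so its difference is no exact fold. In wild type pools 1, 2 and 3 it stood at 8.34, 8.23 and 7.32. All values of Acsm2 lay under the mark (5.49 to 6.35). The calls of Keg1 and Tpmt held without any 1 pool, whereas that of Acsm2 held without wild type pool 3 and was lost in the other 5 cases (adjusted p up to 0.185). Tpmt stood at 8.06 to 8.40 in the null-labelled pools, against 9.15, 8.93 and 9.40 in wild type pools 1, 2 and 3, so that here wild type pool 3 was the highest. Of 19 nuclear receptors and transcription factors of xenobiotic and tubule genes, 1 fell, Hnf4a, a nuclear receptor of proximal tubule and liver. Hnf4a had log2 values of 6.97, 6.90 and 6.84 in null-labelled pools 1, 2 and 3, against 7.87, 7.80 and 7.50 in wild type pools 1, 2 and 3. These groups did not overlap (difference -0.82, SE 0.10, adjusted p = 0.00327), the call held without any 1 pool, and wild type pool 3 was once more the lowest of the wild type. Hnf4a is also 1 of the 6 proximal tubule markers that fell.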

How the data were processed

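The 6 arrays were used as deposited. The values are log2 expression per probe set, 1 column per pool, summarised and normalized by the authors with a program not given in the sources used here. The log2 scale was read from the values: their differences had a slope of 1.50 on the natural-log (ln) folds of the authors' deposited comparison table, where 1 over ln 2 is 1.443. That table also holds, per the file headers, a signed fold, a p-value and a p-value for expression per group. Amplification of 50 ng of RNA with NuGEN kits preceded biotin labelling, per the labels' protocols. Array medians lay between 6.98 and 7.06, and the number of arrays limits the precision (median SE 0.086).

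Row names came from the annotation of the array platform. Of 35556 rows, 21789 had 1 symbol, 1621 several and 12146 none. The row with 1 symbol and the highest mean was kept per gene, 19938 in all, and only Gstm3 among the 49 members had more than 1 row. All 49 symbols were found in RefSeq (GRCm38.p6). The test was limma's moderated one (version 3.58.1, R 4.3.3) with genotype as the only term, two-sided, with Benjamini-Hochberg adjustment over all 19938 genes. The labels do not give the litters of each pool. The fit treated pools as independent, so its SEs and p-values take no account of shared litters. The test was tried on simulated data. An exact test of 3 against 3 pools cannot give a p under 0.1. Differences are null-labelled minus wild type means. Promoters came from RefSeq, the first window listed for a gene (11 members had more than 1).

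Members and lists were chosen with earlier results of these data known. Named were members past the threshold. Per family, up to 4 with the largest difference and up to 3 with the lowest p among the rest were also named. For each list other than the marker lists, up to 4 genes past the threshold were named, or else the 2 with the lowest p. Other members given with values, and the motifs, were chosen after their values or sequences were seen. These members were Sult1a1, Sult2a3, Sult2a6, Ugt2a3, Ugt2b34, Ugt2b35, Ugt3a2 and the Gst genes at the ends of a class.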

Additional observations from a re-analysis of the deposited data

How the results depend on the processing

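The single rise (Sult5a1) and 3 falls (Sult1d1, Ugt2b37 and Ugt8a) among the members stood beside 326 higher and 153 lower genes in all. With all rows tested the counts were 0 and 0 among the members and 71 and 37 over all rows; at an unadjusted p under 0.05 there were 3 higher and 14 lower members in the limma test of 1 row per gene, against 8.68% and 5.42% of all genes. Without 1 pool the members numbered 0 to 1 higher and 1 to 3 lower, and all genes 127 to 572 higher and 64 to 171 lower. With both replicates 3 left out, 0 members and 172 genes rose and 4 members and 134 genes fell. The filter on low rows left 20 members, removed Sult1d1 and Ugt2b37, and called Gstp1, Sult5a1 and Ugt8a. Array weights added Ugt2b5 (adjusted p = 0.0491). Of the 18 members named by rule only Mgst2, which passed under none of its alternatives, changed sign (-0.07 to 0.13). Median centring and quantile normalization kept the same 4 calls and moved the median of all genes by -0.03 each.

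The labels do not say whether pools of the same replicate number share more than the number. Deviations of same-numbered pools correlated at 0.12, 0.07 and 0.05, and every pool correlated best with its own number. Pools of different numbers correlated at -0.10 to 0.04, and what same-numbered pools share was not tested. With the replicate block the same 4 members passed (1 higher, 3 lower), beside 381 higher and 158 lower genes in all. Most Sult and Ugt rows lie near background, 3 of 27 above the mark of low signal, which limits what their differences can show.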
